A study of Homo sapiens with 15 samples.

Results

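The genes described here are 10 members and regulators of the TGF-β superfamily: the activin subunit genes INHBA and INHBB, the activin-binding proteins FST and FSTL3, the ligands GDF15, BMP4, TGFB1 and TGFB2, and the pathway-responsive genes SMAD7 and ID1. They were chosen by name, with their log2 ratios on these same arrays already known, so their ratios are given as descriptions and carry no p-value. All 10 were found among the 30992 genes with a probe on the array, each with 1 probe. Gene expression was measured in MDA-MB-231, an established triple-negative breast cancer cell line, on 15 two-colour arrays, with 5 biological replicates for each of 3 treatments. On every array, RNA of treated cells was labelled with Cy5 and RNA of untreated MDA-MB-231 cells with Cy3, and the dyes were never exchanged, so a dye effect of a probe cannot be told apart from its ratio.

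The shCtBP2 group was MDA-MB-231 cells with stable RNA interference of CtBP2, an NADH-binding transcriptional co-regulator. The HIPP and P4 groups were MDA-MB-231 cells given a small-molecule CtBP2 inhibitor for 24 h. By their chemical names HIPP is an oxime and P4 a hydrazone, both as sodium salts of the same phenylpropanoate. The labels give untreated cells as the control of all 3 groups, whereas the methods of the study describe a scrambled hairpin as the control of shCtBP2, and neither source says whether the knockdown line was a pool or 1 clone. The labels state no dose, and the methods use unequal doses of HIPP and P4 in a time course, so their values are set side by side without a test between them.

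Activins are dimers of inhibin β subunits, encoded by INHBA and INHBB, that bind type II and type I serine/threonine kinase receptors and signal through SMAD2 and SMAD3. Follistatin and FSTL3 bind activins outside the cell and block them, and inhibitory SMADs such as SMAD7 close the loop inside it. TGF-β ligands use the same SMADs, BMPs use SMAD1, SMAD5 and SMAD9 and induce ID1, and GDF15 is a distant member of the superfamily that is induced in stressed cells and acts on a receptor of the GDNF family. CtBP proteins are recruited to DNA by repressors that touch this pathway, among them ZEB factors and TGIF1.

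Both channels of all 10 probes were well above background on 15 of 15 arrays. Of the genes used to check the cell line, VIM, CD44, AXL and CAV1 had control signal well above background on all 15 arrays, and PGR and CDH1 on 0. ESR1 was above background on 11, and ERBB2 and EPCAM on 15, so these 3 were not absent. Over the 15 arrays, the share of gene spots rated well above background was 65.2 to 77.5% for treated RNA and 64.9 to 81.0% for control RNA. HIPP replicates 4 and 5 shared slide 3 with shCtBP2 replicates 1 and 2, P4 replicate 5 shared slide 2 with HIPP replicates 1 to 3, and the remaining P4 and shCtBP2 arrays lay on slides 1 and 4, of which slide 1 was scanned on another day. The log2 ratios of CTBP2, the gene targeted by the hairpin, were −0.36, −0.35, −0.59, −0.44 and −0.29 in shCtBP2 cells, a mean of −0.41 ± 0.11 (SD of 5 arrays, adjusted p = 0.0595 by limma), below 0 on 5 of 5 arrays but past neither threshold. Here and below, limma takes the spread over all 3 treatments, so the SD shown is not the spread behind the p. By real-time PCR and western blot the study itself reported significantly less CtBP2 mRNA and protein than in scrambled control cells. The HIPP arrays gave CTBP2 a mean of 0.57 ± 0.36 (SD of 5 arrays, adjusted p = 0.00256 by limma), and the P4 arrays 0.17 ± 0.35 (SD of 5 arrays, adjusted p = 0.344 by limma). The 2 probes of CTBP2 had −0.42 and −0.39 in shCtBP2 cells, but 0.78 and 0.37 with HIPP and 0.53 and −0.19 with P4. CTBP1 had 0.29 ± 0.13 in shCtBP2 cells (SD of 5 arrays, adjusted p = 0.212 by limma).

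The probe letters of FST and INHBA are shown because these probes read the 2 sides of the activin balance, the antagonist and a ligand subunit, in single stretches of 60 bases given by the array design (genome build hg17). The FST probe lies on chr5:52816594-52816653, plus strand, and the INHBA probe on chr7:41502486-41502545, minus strand. The design places the other probes at chr19:633846-633905 (FSTL3), chr14:53487068-53487127 (BMP4), chr1:215003179-215003238 (TGFB2), chr18:44700780-44700839 (SMAD7) and chr20:29657819-29657878 (ID1), and the ends of the TGFB1 probe 9661 bases apart at chr19:46529982-46539642.
FST probe: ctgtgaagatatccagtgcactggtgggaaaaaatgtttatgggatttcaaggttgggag
INHBA probe: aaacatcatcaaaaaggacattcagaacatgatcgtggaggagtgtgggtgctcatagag

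Promoter letters from RefSeq (GRCh38.p14) are shown for INHBB and FST, whose signals were below control on all 15 arrays, and for GDF15, which was above it on all 15. Each run is the 250 bases before the annotated transcription start, on the plus strand, with capitals where a motif searched was found on either strand.
INHBB promoter, chr2:120345886-120346135: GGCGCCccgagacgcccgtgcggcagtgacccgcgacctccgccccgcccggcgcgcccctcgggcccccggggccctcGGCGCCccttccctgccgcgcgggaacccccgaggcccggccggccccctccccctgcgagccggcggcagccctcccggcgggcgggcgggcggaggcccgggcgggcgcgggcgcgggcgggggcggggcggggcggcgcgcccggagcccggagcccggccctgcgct
FST promoter, chr5:53480379-53480628: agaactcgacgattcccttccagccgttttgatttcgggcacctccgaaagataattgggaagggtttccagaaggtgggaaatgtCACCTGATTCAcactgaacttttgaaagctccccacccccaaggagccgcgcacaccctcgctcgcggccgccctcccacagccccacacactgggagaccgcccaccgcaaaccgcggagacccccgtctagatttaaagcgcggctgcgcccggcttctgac
GDF15 promoter, chr19:18385908-18386157: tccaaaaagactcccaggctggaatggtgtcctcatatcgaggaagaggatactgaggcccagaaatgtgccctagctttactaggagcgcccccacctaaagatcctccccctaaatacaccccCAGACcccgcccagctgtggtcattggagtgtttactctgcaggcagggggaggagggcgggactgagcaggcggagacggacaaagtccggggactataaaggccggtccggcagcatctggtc

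The motifs searched on both strands were CACCTG (the E2-box bound by ZEB factors), TGANTCA (AP-1), TGACG (a CRE half-site), TGATGNAA (a C/EBP-ATF composite), CAGAC (a SMAD box) and GGCGCC (a GC-rich SMAD element). The INHBB window, 89.6% G and C, held GGCGCC starting 250 and 171 bases before the start, and 16.4% of all 35116 RefSeq windows of this length hold it. The FST window held CACCTG starting at 164 bases and TGANTCA starting at 160 bases before the start, and the 2 overlap. CACCTG occurs in 17.5% and TGANTCA in 6.57% of all windows. The GDF15 window held CAGAC at 125 bases before the start, a motif in 38.0% of all windows, and neither TGACG (21.2% of windows) nor TGATGNAA (3.14%). The 10 genes have 14 windows in the table, since BMP4 and SMAD7 have several starts, and 6 of these 14 held CAGAC, 3 GGCGCC, 2 CACCTG, 1 TGANTCA, 1 TGACG and 0 TGATGNAA. Such a match is a description of letters and not of a bound site.

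INHBB, the β-B subunit of activin B and inhibin B, had the lowest ratios of the 10 genes in shCtBP2 cells. Its probe lies on chr2:120825010-120825069 (hg17). In shCtBP2 cells the log2 ratios of treated over control signal were −4.00, −4.23, −4.35, −4.19 and −3.30, a mean of −4.01 ± 0.42 (SD, n = 5), so the treated signal was 6.19% of control. The control signal was 1851 to 2996 units of processed intensity and the treated signal 118.9 to 188.4, still well above background. RNA came from whole cultures, so fewer expressing cells and less RNA per cell cannot be told apart. With HIPP the ratios were −2.07, −2.11, −1.97, −0.93 and −2.33, a mean of −1.88 ± 0.55 (SD, n = 5). With P4 they were −0.76, −2.27, −1.67, −1.30 and −1.56, a mean of −1.51 ± 0.55 (SD, n = 5). The 5 shCtBP2 arrays lay below all 10 arrays of the inhibitors, and the HIPP and P4 arrays overlapped. Replicate 4 of HIPP stood apart from the other 4 HIPP arrays, and without it the mean was −2.12. With normexp background correction and loess normalization the mean in shCtBP2 cells was −2.96, still the lowest of the 10 genes there.

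INHBA, the β-A subunit of activin A, was on the opposite side of control from INHBB on every array. Its log2 ratios with HIPP were 1.79, 1.94, 1.95, 1.35 and 2.41, a mean of 1.89 ± 0.38 (SD, n = 5), 3.70 times the control signal. In shCtBP2 cells they were 0.78, 0.13, 0.29, 0.28 and 0.86, a mean of 0.47 ± 0.33 (SD, n = 5). The P4 arrays had 0.87, 0.20, 0.50, 0.51 and 0.47, a mean of 0.51 ± 0.24 (SD, n = 5). All 5 HIPP arrays lay above the 10 others, and the shCtBP2 and P4 arrays overlapped. The processed signal with HIPP was 1279 to 2748 units against 370.5 to 553.8 in the control channel of the same arrays.

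**Figure D1:**
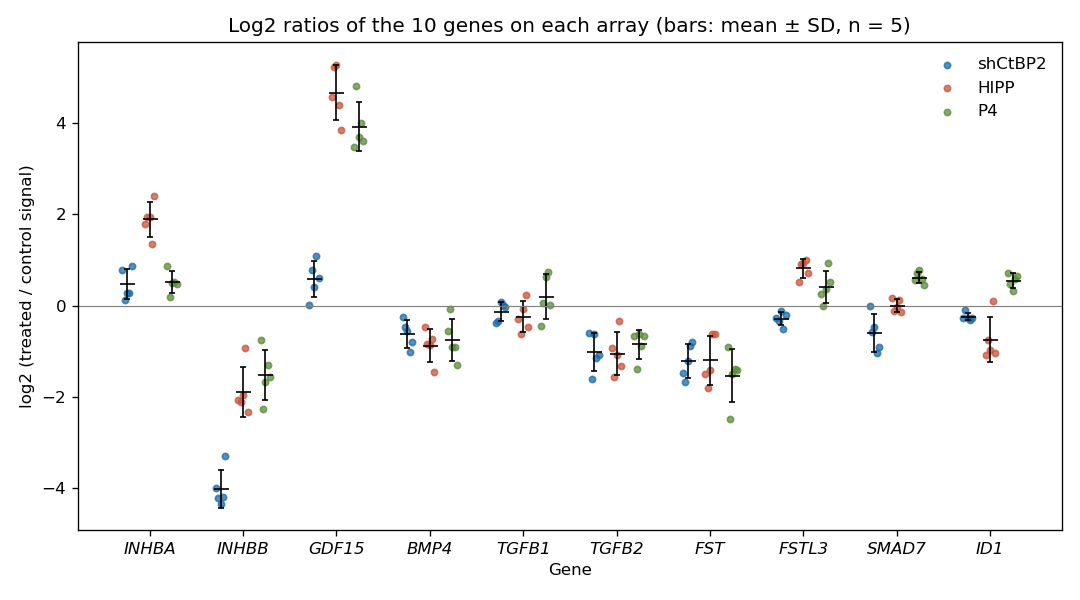
Log2 ratio of treated over control signal (vertical axis) for the 10 genes (horizontal axis), with 1 point per array in shCtBP2, HIPP and P4 and black bars for the mean ± SD over 5 arrays. INHBB lies lowest in shCtBP2, at a mean of −4.01, and GDF15 lies at means of 4.66 with HIPP and 3.92 with P4.

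GDF15, a stress-induced cytokine, had the highest ratios of the 10 genes with both inhibitors. Its probe lies on chr19:18360890-18360949 (hg17). With HIPP the log2 ratios were 4.58, 5.22, 5.28, 4.39 and 3.85, a mean of 4.66 ± 0.60 (SD, n = 5), 25.4 times the control signal. With P4 the values were 3.47, 4.82, 3.70, 4.01 and 3.61, a mean of 3.92 ± 0.54 (SD, n = 5), 15.1 times control. These 2 sets of arrays overlapped. In shCtBP2 cells the ratios were 0.01, 0.79, 0.42, 1.09 and 0.61, a mean of 0.59 ± 0.40 (SD, n = 5), below every inhibitor array. With slide as a fixed block the shCtBP2 estimate was 1.03. Such estimates are adjusted for slide through the slides that held 2 treatments, and P4 is linked by 1 array on slide 2. They can therefore lie outside the values of the arrays. The control signal was 831.5 to 2088 units over the 15 arrays, and the treated signal reached 25160 to 81350 with HIPP and 13000 to 23470 with P4.

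**Figure D2:**
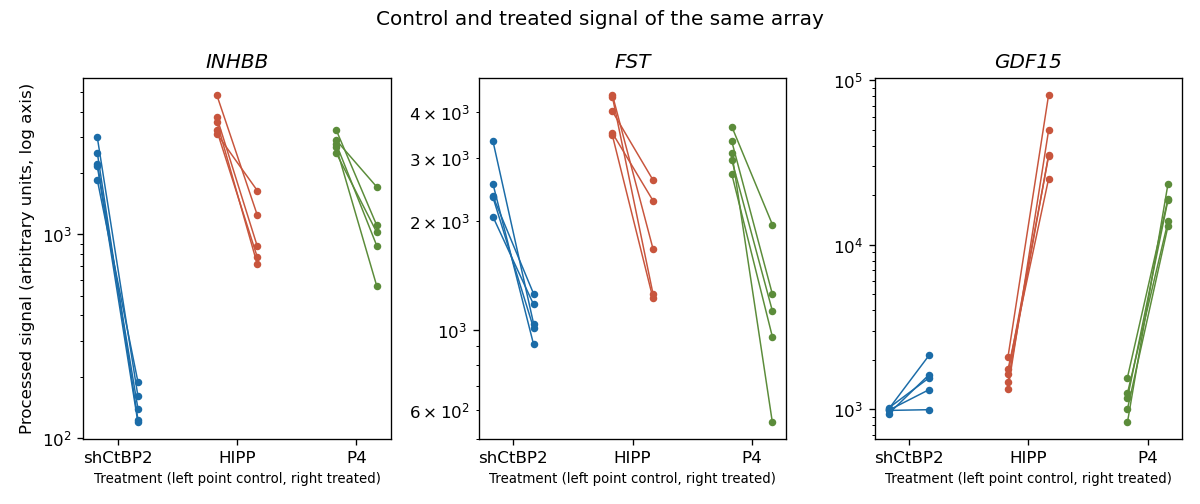
Processed signal in arbitrary units (vertical log axis, a scale of its own in each panel) of INHBB, FST and GDF15, with a line from the control channel to the treated channel of each array, grouped by treatment. Treated INHBB signal lies at 118.9 to 188.4 units in shCtBP2, and treated GDF15 signal at 25160 to 81350 units with HIPP.

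FST, which encodes follistatin, was below control on all 15 arrays. The log2 ratios were −1.48, −1.68, −1.20, −0.90 and −0.81 in shCtBP2 cells, a mean of −1.21 ± 0.37 (SD, n = 5), or 43.2% of control. With HIPP they were −1.50, −1.81, −1.42, −0.62 and −0.63, a mean of −1.20 ± 0.54 (SD, n = 5). The P4 values were −0.90, −2.48, −1.50, −1.39 and −1.41, a mean of −1.53 ± 0.58 (SD, n = 5). The ranges of the 3 treatments overlapped. The 3 HIPP arrays on slide 2 had −1.42 or lower, whereas both HIPP arrays on slide 3 lay near −0.63, and the shCtBP2 arrays averaged −1.58 on slide 3 and −0.97 on slide 4. With slide as a fixed block the FST estimates were −1.94 in shCtBP2 cells and −0.82 with P4, both outside the values of the arrays themselves.

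FSTL3, the second follistatin-type antagonist, was below control like FST in shCtBP2 cells but above it with HIPP. With HIPP its log2 ratios were 0.51, 0.91, 0.94, 1.01 and 0.71, a mean of 0.82 ± 0.20 (SD, n = 5). In shCtBP2 cells they were −0.27, −0.34, −0.11, −0.50 and −0.21, a mean of −0.29 ± 0.15 (SD, n = 5). On the P4 arrays they were 0.25, −0.0026, 0.36, 0.92 and 0.53, a mean of 0.41 ± 0.35 (SD, n = 5). All shCtBP2 arrays lay below all inhibitor arrays, and HIPP and P4 overlapped. With normexp and loess the means of shCtBP2, HIPP and P4 were −0.14, 0.37 and 0.27, and on mean signals without background correction the first 2 were −0.12 and 0.52. FSTL3 was the dimmest of these probes in shCtBP2 cells, with 70.55 to 100.4 units in the treated channel.

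BMP4, a ligand of the SMAD1, SMAD5 and SMAD9 branch, was below control on all 15 arrays, at −0.24, −0.47, −0.55, −1.02 and −0.80 in shCtBP2 cells, a mean log2 ratio of −0.62 ± 0.30 (SD, n = 5). With HIPP it had −0.47, −0.84, −0.87, −0.74 and −1.46, a mean of −0.88 ± 0.36 (SD, n = 5). With P4 it had −0.56, −0.06, −0.91, −0.91 and −1.30, a mean of −0.75 ± 0.46 (SD, n = 5). The 3 treatments overlapped, and no order among them could be read from these arrays. With slide as a fixed block, the shCtBP2 estimate of BMP4 was −0.11 and the P4 estimate −1.42, both outside the values of the arrays. With normexp and loess the HIPP mean was −0.53.

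TGFB2, an isoform of TGF-β, was also below control on all 15 arrays. Its log2 ratios were −0.60, −1.62, −0.63, −1.15 and −1.08 in shCtBP2 cells, a mean of −1.02 ± 0.42 (SD, n = 5). With HIPP they were −0.93, −1.57, −1.09, −0.34 and −1.32, a mean of −1.05 ± 0.47 (SD, n = 5), and with P4 −0.67, −1.39, −0.62, −0.88 and −0.66, a mean of −0.85 ± 0.32 (SD, n = 5). The treatments overlapped here too, and treated TGFB2 signal was 49.4%, 48.3% and 55.7% of control for shCtBP2, HIPP and P4. After normexp correction and loess, its shCtBP2 and HIPP means were −0.57 and −0.55, and with slide as a fixed block its P4 estimate was −0.49.

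TGFB1, the most widely expressed TGF-β isoform, lay on both sides of control in each treatment. Its ratios were −0.38, −0.34, 0.08, 0.01 and −0.03 in shCtBP2 cells (mean −0.13 ± 0.21, SD, n = 5), −0.30, −0.61, −0.07, 0.24 and −0.46 with HIPP (mean −0.24 ± 0.34, SD, n = 5) and −0.46, 0.05, 0.62, 0.74 and 0.02 with P4 (mean 0.20 ± 0.49, SD, n = 5). The TGFB1 probe is printed 10 times on each array, and the SD over these spots was 0.02 to 0.08 (median 0.05), a measure of spot error within an array and not of the spread between samples. With slide as a fixed block its estimates were −0.32 in shCtBP2 cells and −0.07 with HIPP, and the P4 mean ran from 0.06 to 0.36 with 1 array left out.

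SMAD7, an inhibitory SMAD that TGF-β signalling itself induces, was on opposite sides of control in shCtBP2 and P4. With P4 its log2 ratios were 0.55, 0.71, 0.77, 0.58 and 0.46, a mean of 0.61 ± 0.13 (SD, n = 5). In shCtBP2 cells they were −0.0021, −0.57, −0.48, −1.04 and −0.92, a mean of −0.60 ± 0.41 (SD, n = 5). With HIPP they were 0.17, −0.12, −0.03, 0.13 and −0.14, a mean of 0.0021 ± 0.14 (SD, n = 5). The P4 arrays lay above all others, and the shCtBP2 and HIPP arrays overlapped. SMAD7 had 65.9%, 100.1% and 153.1% of the control signal in shCtBP2, HIPP and P4. With slide as a fixed block its P4 estimate was 0.37, below all 5 P4 arrays.

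ID1, a BMP-induced inhibitor of basic helix-loop-helix factors, was the brightest of the 10 probes in the control channel, at 37680 to 85480 units. With P4 its log2 ratios were 0.72, 0.48, 0.32, 0.59 and 0.64, a mean of 0.55 ± 0.16 (SD, n = 5). With HIPP they were −1.07, −0.75, −0.98, 0.11 and −1.03, a mean of −0.74 ± 0.49 (SD, n = 5). In shCtBP2 cells they were −0.26, −0.10, −0.27, −0.31 and −0.27, a mean of −0.24 ± 0.08 (SD, n = 5), which was 0.14 on mean signals without background correction and −0.47 with slide as a fixed block. The P4 value was 1.03 and 0.82 under the same settings, and the former passed both limits for a call. All P4 arrays lay above all shCtBP2 and HIPP arrays, and shCtBP2 and HIPP overlapped through replicate 4 of HIPP. Without that replicate the HIPP mean of ID1 was −0.96.

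**Figure D3:**
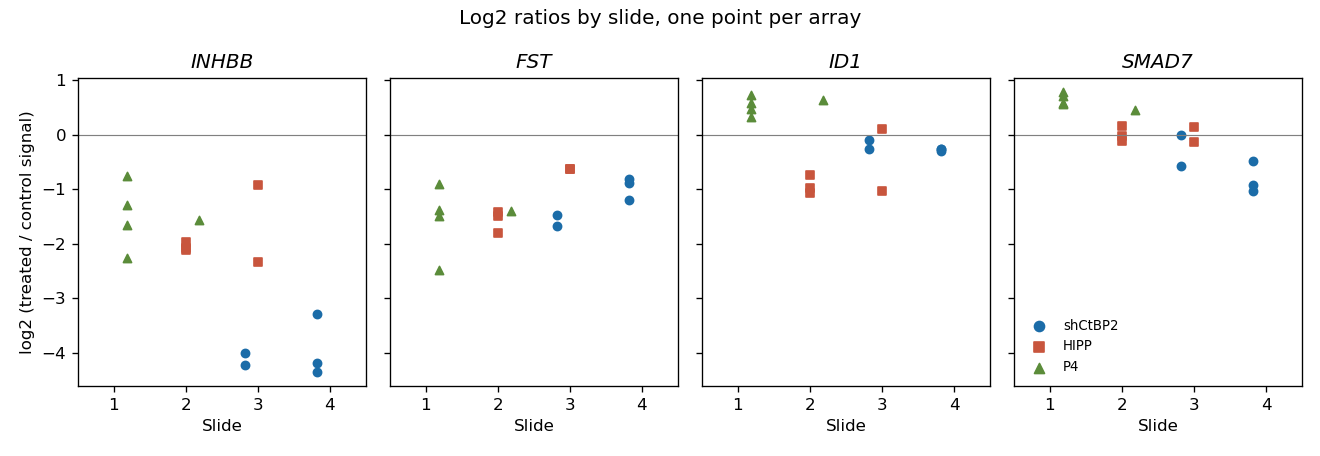
Log2 ratio of treated over control signal (vertical axis) of INHBB, FST, ID1 and SMAD7 by slide (horizontal axis), 1 point per array, with shCtBP2, HIPP and P4 as circles, squares and triangles. On slide 3, which held both treatments, the 2 shCtBP2 arrays averaged −4.11 for INHBB and the 2 HIPP arrays −1.63.

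INHBB, FST, BMP4 and TGFB2 were below control, and INHBA and GDF15 above it, on 15 of 15 arrays. Of the 30866 genes with a value on every array, 3.68% were below and 3.52% above control on all 15, and since the 10 genes were chosen with their ratios known, nothing is read from this difference. Slides 2 and 3 held 2 treatments each. Within slide 3, INHBB was lower on the shCtBP2 arrays (−4.23 to −4.00) than on the HIPP arrays (−2.33 and −0.93). Within slide 2, the 1 P4 array had an ID1 ratio of 0.64 and the 3 HIPP arrays −1.07 to −0.75.

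A gene was called differentially expressed when its limma adjusted p was below 0.05 and its fold change passed the threshold of the study's methods for that treatment, 1.5 for shCtBP2, 2.5 for HIPP and 1.8 for P4. In shCtBP2 cells 5 of the 10 genes were past both limits, beside 6.57% of the 27582 genes tested. They were INHBB, FST, BMP4, TGFB2 and SMAD7, while FSTL3 and TGFB1 had been removed by the filter on low variability. INHBB and FST kept this call under the 9 alternatives that were followed for each of the 10 genes, and without each array. BMP4 and SMAD7, at means of −0.617 and −0.601 against a limit of 0.585 on the log2 scale, lay just inside it. The BMP4 call was lost without replicate 2, 3, 4 or 5, with slide as a fixed block (−0.11), with normexp and loess (−0.44) and on mean signals without background correction (−0.40). SMAD7 lost its call without replicate 4 (−0.49) or 5 (−0.52), with the slide block (−0.37), with normexp and loess (−0.38), on uncorrected signals (−0.38) and with the per-gene test of the study's methods, and TGFB2 lost it with normexp and loess (−0.57) and with that per-gene test. With HIPP 3 of the 10 were past both limits (INHBA, INHBB and GDF15), beside 7.05% of all genes, and SMAD7 had been filtered out. With P4 3 of the 10 were past both (INHBB, FST and GDF15), beside 8.46% of all genes, and with slide as a fixed block INHBB (−1.29) and FST (−0.82) were no longer called there. Nothing about the 10 genes is read from these counts, because the same ratios chose them. BMP4 with HIPP or P4 missed the fold threshold, but with P4 was called with slide as a fixed block and without replicate 2. TGFB2 with P4 was the nearest miss, at −0.845 against a limit of 0.848 on the log2 scale, and it was called with slide as a random block and without P4 replicate 1, 3 or 5. FST with HIPP, at a fold of 2.29, also lay just outside, and was called on uncorrected signals and without HIPP replicate 4 or 5. GDF15 in shCtBP2 cells reached the fold but not the adjusted p, and was called with the replicate block.

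The rest of the superfamily was followed with a list of 102 other genes, of which 101 have a probe. Among them 23 were called in at least 1 treatment and 0 in all 3. In shCtBP2 cells 11 of the 94 tested were called (3 up-regulated and 8 down-regulated), with HIPP 9 of 94 (3 and 6) and with P4 8 of 92 (5 and 3), beside 6.57%, 7.05% and 8.46% of all genes tested. The same shares stand beside the counts by role below, which are small, and nothing is read from those counts or their directions. With normexp correction and loess 2, 1 and 2 of the list were called. Over all genes the calls fell to 269, 280 and 584, from 1813, 1944 and 2333. The fold thresholds were unchanged there, so a call lost under this correction is not particular to the list. Among the genes named here, the calls of LTBP1 in shCtBP2 cells, CCN2 with HIPP and P4 and TGFBR3 with P4 were kept there and the other calls were lost. The mean under that correction is given for the others except LEFTY1, BMP8B and CDKN2B, each of them below background in a whole group. The median log2 ratio of the tested genes of the list for shCtBP2, HIPP and P4 was −0.07, 0.08 and 0.11, against 0.04, 0.08 and 0.11 over all genes tested.

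Among the 26 other ligands on the array, 1 of 23 tested was called for shCtBP2, 4 of 24 for HIPP and 3 of 26 for P4. BMP6, a bone morphogenetic protein, rose with both inhibitors on the processed signals. Its log2 ratios were 2.32, 1.72, 2.05, 1.29 and 1.15 with HIPP, a mean of 1.71 ± 0.49 (SD of 5 arrays, adjusted p = 1.5e-06 by limma). P4 gave 1.18, 1.86, 1.74, 1.39 and 1.498, a mean of 1.53 ± 0.27 (SD of 5 arrays, adjusted p = 1.98e-05 by limma). With normexp and loess these means were 0.67 and 0.74, and on uncorrected signals 0.94 and 0.78, all above 0 but under the fold thresholds, so that both calls were lost. BMP6 was below 0 on all 5 shCtBP2 arrays, with a mean of −0.52 ± 0.40 that missed the threshold (SD of 5 arrays, adjusted p = 0.0597 by limma). It had −0.15 there with normexp and loess and 0.017 with slide as a fixed block. INHBE, the β-E subunit of activin E, was called with P4 (limma adjusted p = 0.000443), but the control channel exceeded background on only 1 of 5 arrays. Its mean was 1.12 as processed and 0.19 with normexp and loess, so no size is read from it, and the call was also lost on uncorrected signals, with the slide block and with the methods' per-gene test. LEFTY1, a NODAL antagonist of the family, was well above background on 0 treated arrays of HIPP and of P4. Its processed ratios were called lower there (limma adjusted p = 3.91e-05 for HIPP and 2.71e-05 for P4). The bounds for a dim probe were at least 1.15-fold and 1.21-fold lower, came from another correction and were not tested. BMP8B, called in shCtBP2 and HIPP, was well above background on 0 control arrays of both. With HIPP it was at least 1.04-fold higher (limma adjusted p = 2.09e-05), and in shCtBP2 cells, where the treated channel was also below background, no fold is given.

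Of the 26 extracellular modulators, 4 of 24 tested were called for shCtBP2, 1 of 24 for HIPP and 0 of 25 for P4. CHRDL1, a BMP-binding antagonist, fell in shCtBP2 cells by 1.24 ± 0.04 on the log2 scale (SD of 5 arrays, adjusted p = 2.99e-06 by limma), −0.54 with normexp and loess, and had 0.74 ± 0.29 with HIPP, under the fold threshold. LTBP1, which stores latent TGF-β in the matrix, fell in shCtBP2 cells by 1.09 ± 0.42 (SD of 5 arrays, adjusted p = 0.000294 by limma). DAND5, an antagonist of the DAN family, was called there (limma adjusted p = 0.0126), with a control signal above background on 2 of 5 arrays. Its mean was 1.24 as processed, 0.27 with normexp and loess and 0.15 on uncorrected signals, so no size is read from it, and the call was also lost with the slide block, with the methods' per-gene test and without replicate 1. NBL1, another DAN-family BMP antagonist, rose with HIPP on all 5 arrays (1.46, 1.81, 1.77, 1.66 and 1.75), a mean of 1.69 ± 0.14 (SD of 5 arrays, adjusted p = 8.63e-08 by limma). With normexp and loess it was 1.21 and on uncorrected signals 1.28, both under the fold threshold. With P4 NBL1 had 0.78 ± 0.42, under the fold threshold, but 0.95 and a call without P4 replicate 1.

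Of the 15 receptors, 1 was called in each treatment, each time downward, of 15 tested for shCtBP2 and for HIPP and 13 for P4. TGFBR3, the co-receptor betaglycan that presents TGF-β2 and inhibin, fell with both inhibitors. Its log2 ratios were −0.89, −2.34, −1.20, −2.10 and −2.06 with HIPP, a mean of −1.72 ± 0.63 (SD of 5 arrays, adjusted p = 3.38e-05 by limma), and −0.69 with normexp and loess and −0.99 on uncorrected signals, both under the fold threshold. With P4 they were −2.22, −1.34, −0.81, −1.91 and −2.57, a mean of −1.77 ± 0.70 (SD of 5 arrays, adjusted p = 9.99e-05 by limma). This P4 call was kept at −1.01 with normexp and loess, −0.99 on uncorrected signals and −2.58 with the slide block. In shCtBP2 cells TGFBR3 had −0.33 ± 0.31 (SD of 5 arrays, adjusted p = 0.405 by limma). ACVR2A, a type II activin receptor, had −0.65 ± 0.22 in shCtBP2 cells (SD of 5 arrays, adjusted p = 0.0344 by limma), below 0 on 5 of 5 arrays. This call was lost without any 1 of the 5 arrays, with slide as a fixed block (−0.43), with normexp and loess (−0.25), on uncorrected signals (−0.34) and with the methods' per-gene test.

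Of the 18 SMADs and regulators, 1 of 17 tested was called for shCtBP2, 2 of 17 for HIPP and 2 of 16 for P4. SMAD6, an inhibitory SMAD, was called in shCtBP2 cells (limma adjusted p = 0.024), with treated signal above background on 2 of 5 arrays. Its mean was −1.02 as processed, −0.14 with normexp and loess and −0.24 on uncorrected signals, so no size is read from it, and the call was also lost with the slide block, with the methods' per-gene test and without replicate 3 or 4. SMAD4, the common partner of the receptor-activated SMADs, fell with HIPP by 1.57 ± 0.85 (SD of 5 arrays, adjusted p = 0.00036 by limma), and had −0.82 with normexp and loess and −1.17 on uncorrected signals, without a call in either. PMEPA1, a TGF-β-induced inhibitor of the pathway, fell with HIPP by 1.39 ± 0.47 (SD of 5 arrays, adjusted p = 2.64e-06 by limma), but its 2 probes disagreed in size, at −2.35 and −0.43, and the call was lost with the brighter of them, with normexp and loess (−1.08) and without HIPP replicate 5 (−1.22). TGIF1 and SKIL, repressors of SMAD-dependent transcription, rose with P4 by 0.90 ± 0.42 (SD of 5 arrays, adjusted p = 0.00334 by limma) and 0.94 ± 0.48 (SD of 5 arrays, adjusted p = 0.00141 by limma). With normexp and loess they had 0.80 and 0.60. Both calls were lost with the methods' per-gene test, that of TGIF1 also without P4 replicate 4 or 5, and that of SKIL also on uncorrected signals and with the slide block. SKIL had 1.15 ± 0.52 with HIPP, under the fold threshold there, but 1.37 and a call without HIPP replicate 4. With slide as a fixed block the TGIF1 estimates were 1.85 with P4, and −1.42 with a call in shCtBP2 cells, both beyond every array of the group.

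Of the 16 target genes, 4 of 15 tested were called for shCtBP2, all downward, 1 of 14 for HIPP and 2 of 12 for P4. CCN2, a matricellular protein induced by TGF-β and by YAP, fell with both inhibitors. Its log2 ratios were −2.50, −3.47, −2.23, −2.86 and −2.93 with HIPP, a mean of −2.80 ± 0.47 (SD of 5 arrays, adjusted p = 4.81e-08 by limma). The P4 arrays had −1.97, −2.17, −0.86, −1.68 and −1.85, a mean of −1.71 ± 0.50 (SD of 5 arrays, adjusted p = 2.16e-05 by limma), and in shCtBP2 cells the mean was −0.45 ± 0.38 (SD of 5 arrays, adjusted p = 0.143 by limma). ATOH8, a BMP-responsive transcription factor, fell in shCtBP2 cells by 1.40 ± 0.53 (SD of 5 arrays, adjusted p = 2.61e-05 by limma), and had −0.50 with normexp and loess and −0.52 on uncorrected signals, without a call. ID2, a relative of ID1, fell there by 0.79 ± 0.40 (SD of 5 arrays, adjusted p = 0.00151 by limma), and had −0.48 with normexp and loess, −0.49 on uncorrected signals and −0.67 with the slide block, without a call in any of them. TAGLN, an actin-binding protein of contractile cells, fell there by 0.68 ± 0.24 (SD of 5 arrays, adjusted p = 0.00467 by limma), with means of −1.05 and −0.31 for its 2 probes, and −0.12 with normexp and loess. The TAGLN call was also lost with the brighter probe, on uncorrected signals, with the slide block and with the methods' per-gene test. CDKN2B, the cyclin-dependent kinase inhibitor p15, was called with P4 (limma adjusted p = 0.0256), but the control channel exceeded background on 0 of 5 arrays and no fold is given.

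**Figure D4:**
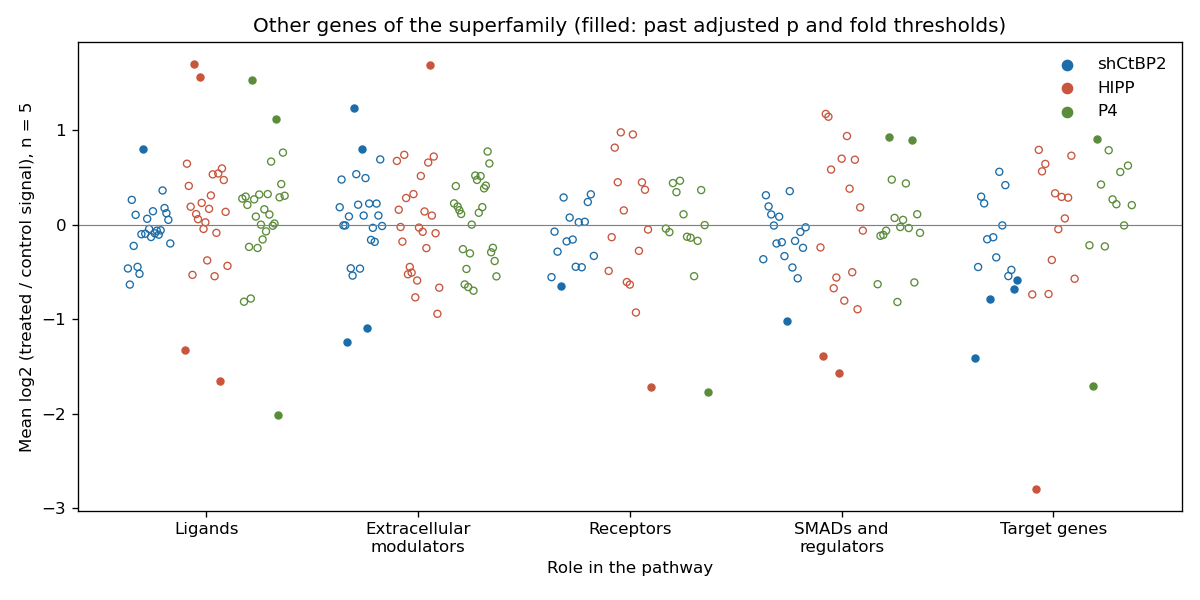
Mean log2 ratio of treated over control signal (vertical axis, n = 5 arrays) of the tested genes of the other superfamily list, by role and treatment, 1 point per gene, filled where the gene passed the adjusted p and the fold threshold. The lowest target gene with HIPP is CCN2, at −2.80.

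The genes whose ratios over the 15 arrays were most like those of INHBB, by Pearson r among 12430 well-measured genes, were ABCC3 (r = 0.97), COL5A1 (r = 0.97) and DHRS2 (r = 0.96). Their mean log2 ratios in shCtBP2, HIPP and P4 were −0.72, 1.33 and 1.60 for ABCC3, so that the likeness is one of order among the treatments and not of side. COL5A1 (−0.90, 0.34 and 0.58) and DHRS2 (−1.25, 1.49 and 1.61) were likewise above control with the inhibitors. For GDF15 they were AARS1, WARS1 and KCNAB2 (r = 0.98 each). AARS1 and WARS1 are cytosolic aminoacyl-tRNA synthetases, and the mean ratios in shCtBP2, HIPP and P4 were 0.12, 1.56 and 1.36 for WARS1, −0.30, 0.99 and 0.70 for AARS1 and −0.50, 0.77 and 0.52 for KCNAB2. AARS1 and KCNAB2 thus lay below control in shCtBP2 cells, where GDF15 lay above it. For FST, whose treatments overlapped, they were ASPH (r = 0.92), BASP1 (r = 0.90) and UACA (r = 0.87). ASPH had means of −0.0018, 0.11 and −0.21, BASP1 −0.33, −0.19 and −0.47, and UACA −0.44, −0.79 and −0.98, so that ASPH lay close to control where FST lay well below it. These r values are descriptions over 15 arrays that share treatments and slides, and no p is given.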

How the data were processed

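The 15 arrays are Agilent whole human genome 4x44K two-colour arrays. The authors scanned them, removed background and balanced the dyes in Feature Extraction (version 9.5.3.1 per the file headers), and deposited a signal intensity per spot and channel on a linear scale, together with log10 ratios of Cy5 over Cy3, which were used in an alternative. The deposited log10 ratios equal the scanner files' own ratio column.

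From the processed intensities, log2 of treated over control was taken per spot, 78 to 265 flagged gene spots per array were left out, and probes were averaged per gene. Probes were named through RefSeq by accession or symbol. Genes needed a value on 3 of 5 arrays, and the 11% with the lowest interquartile range over the 10 channel signals of a treatment were removed. Each treatment was tested against 0 in 1 limma fit (limma 3.58.1, R 4.3.3) over all 15 arrays, with Benjamini-Hochberg adjustment over all genes tested. Labels call the arrays biological replicates. If they shared 1 control extract, the tests leave out the spread between control samples. The fit was tested on simulated data, in which 70, 51 and 54 of 100 genes changed by 1 on the log2 scale passed the adjusted p for shCtBP2, HIPP and P4, and 93, 86 and 83 of 100 changed by 2, in 30992 genes. Each simulated gene had the same spread in all 3 treatments, and the changed genes were drawn from those tested in shCtBP2. These numbers are therefore not the power of each treatment in the real data. The number of arrays limits the precision.

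The 10 genes, the pathway list of 102 genes and the tests were chosen with earlier results of these data known. Named were all 10 genes, CTBP2, CTBP1, up to 3 called genes per role and treatment with the largest mean change, and the 3 genes most like INHBB, GDF15 and FST by Pearson r. Bounds for dim probes used normexp (offset 50), loess and Aquantile, with each dim signal raised at least to the floor of its channel, the lowest value there rated well above background. These bounds are open to dye bias. The alternatives were other background corrections, filters, probe rules, blocks, thresholds and tests, and each array left out in turn. Values with slide as a fixed block are estimates adjusted for slide and not means of arrays. Calls lost or gained there rest on the few arrays that share a slide with another treatment.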

Additional observations from a re-analysis of the deposited data

Results flagged for a closer look

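In each treatment the 5 arrays were checked for 1 array far from the other 4, a check that chance alone trips in about 1 group of 20. INHBB with HIPP had −0.93 in replicate 4, against −2.33 to −1.97 in the other 4 arrays. The same array stood apart for ID1, with 0.11 against −1.07 to −0.75, and for SKIL, with 0.24 against 1.18 to 1.54. ID1 in shCtBP2 replicate 2 had −0.10 against −0.31 to −0.26. INHBE in HIPP replicate 1 had 1.31 against 0.23 to 0.46, TAGLN in shCtBP2 replicate 5 had −0.25 against −0.83 to −0.75, and SKIL in P4 replicate 1 had 0.10 against 0.96 to 1.28.

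Some genes had all 5 arrays of one treatment on one side of control and all 5 of another on the other side. These differences were not tested. No share of all genes that do so is given, so nothing is read from their number. Among the 10 genes, FSTL3 had a mean log2 ratio of −0.29 in shCtBP2 cells and 0.82 with HIPP. SMAD7 had −0.60 in shCtBP2 cells and 0.61 with P4, and ID1 −0.24 and 0.55. Among the named pathway genes, BMP6 had −0.52 in shCtBP2 cells against 1.71 with HIPP and 1.53 with P4, and NBL1 −0.18 against 1.69 and 0.78. With slide as a fixed block BMP6 had 0.017 in shCtBP2 cells, and on uncorrected signals NBL1 had −0.034 there. Unnamed genes of the list also met this rule and are not given. TGIF1 had −0.57 in shCtBP2 cells against 0.69 with HIPP and 0.90 with P4, and −1.42 and 1.85 in shCtBP2 and P4 with slide as a fixed block. Between shCtBP2 and HIPP, TAGLN had −0.68 and 0.73, CHRDL1 −1.24 and 0.74, and PMEPA1 0.31 and −1.39. Under the alternatives that kept all arrays, the HIPP values ran from 0.21 to 0.91 for TAGLN and 0.40 to 0.80 for CHRDL1. Those of PMEPA1 ran from −1.48 to −0.43. Between shCtBP2 and P4, LTBP1 had −1.09 and 0.52, and ID2 −0.79 and 0.27, while ID2 with HIPP had −0.73.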

How the results depend on the processing

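Over 420 values of the 10 genes under the alternatives, 6 changed sign: SMAD7 with HIPP 4 times, and TGFB1 and ID1 in shCtBP2 cells once each. None of these was called. Counts follow the order shCtBP2, HIPP, P4. Under normexp correction and loess, 2, 1 and 2 genes of the pathway list were called instead of 11, 9 and 8, of the 10 genes 2 in shCtBP2 cells instead of 5, and of all genes 269, 280 and 584 instead of 1813, 1944 and 2333. Uncorrected mean signals centred on the array median gave 2, 2 and 3 of the list, 3 of the 10 genes in shCtBP2 cells, and 309, 570 and 661 of all genes, of which 72.8%, 25.3% and 79.4% were up-regulated against 50.9%, 48.7% and 50.8%. Slide as a fixed block left 3 of the 10 genes in shCtBP2 cells (BMP4 and SMAD7 were lost) and 2 with P4, where INHBB and FST were lost and BMP4 was gained. The methods' t-test, adjusted over all genes, gave 5 of the list in shCtBP2 cells and 4 with P4, 3 of the 10 genes in shCtBP2 cells, and 969, 1618 and 891 of all genes, and before adjustment 1836, 1893 and 1969. A 1.5-fold threshold for all gave 36 and 18 of the list, 8 and 6 of the 10 genes, and 8976 and 4831 of all genes for HIPP and P4.

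With 1 array left out, 7 to 10, 7 to 10 and 6 to 12 genes of the list were called, 3 to 5, 3 to 4 and 3 to 4 of the 10 genes, and 1300 to 1643, 1731 to 2232 and 2096 to 2805 of all genes. Leaving out shCtBP2 replicate 1 or 4 gave 7 of the list, and leaving out shCtBP2 replicate 4 or 5 gave 3 of the 10 genes. A replicate block gave 10, 9 and 8 of the list, 6, 3 and 3 of the 10 genes (GDF15 was gained in shCtBP2 cells), and 2222, 1943 and 2429 of all genes. Same-numbered arrays correlated at −0.03 to 0.47, over 0.1 in 13 of 15 pairs, and 13 of 30 comparisons were closest to their own number, where numbers that carry nothing would give 6. The labels tie the numbers to no shared batch and 2 pairs were not over 0.1, so they were not taken as pairs, and a partial pairing was not settled.

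Only the named pathway genes other than LEFTY1, BMP8B and CDKN2B were followed gene by gene under the alternatives. Among them, uncalled values that turned were, with slide as a fixed block, BMP6 (0.017), TGFBR3 (0.16), SMAD4 (0.46) and SKIL (0.30) in shCtBP2 cells and TAGLN (−0.12), SMAD6 (−0.14) and ACVR2A (−0.15) with P4. On uncorrected mean signals they were INHBE (−0.061) and SKIL (0.018) in shCtBP2 cells, LTBP1 with HIPP (−0.077), and PMEPA1 (0.021) and SMAD6 (−0.029) with P4. With the brightest probe PMEPA1 had 0.12 with P4. With 1 array left out, SKIL ranged from −0.057 to 0.044 in shCtBP2 cells, and PMEPA1 from −0.18 to 0.0063 and SMAD6 from −0.039 to 0.13 with P4. The causes were not tested. Dim probes such as INHBE, LEFTY1 and BMP8B were limited by background.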
